A study of Mus musculus with 15 samples.

Results

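Hair keratins and the other genes of the hair shaft and its sheath were followed through ultraviolet-irradiated skin of female SKH1 mice. Members were chosen by symbol, with earlier results of these data known. They are every keratin-associated protein gene (symbol beginning with Krtap), the keratins Krt25 to Krt28, Krt31 to Krt36, Krt71 to Krt75 and Krt81 to Krt86, and Tchh, Padi3, Foxn1, Msx2, Dlx3 and Lhx2. This gave 80 genes of the 24027 symbols in the deposited tables. They comprise 9 genes of the inner root sheath, 13 keratins of the cortex and cuticle, the companion layer keratin Krt75, 52 keratin-associated protein genes, and 5 others, namely 4 transcription factors and the enzyme Padi3. Actinic keratoses were raised in mice aged 6 to 8 weeks at the start by 10 weeks of ultraviolet B (500 J/m2, 5 days a week), and either GZ21T cream or a placebo cream (0.25 g, 5 days a week) was applied. Total RNA of 15 libraries in 5 groups of 3 was sequenced: lesions of GZ21T mice, and from placebo mice the lesions, the skin around them (perilesional), irradiated skin without lesions (non-lesional) and skin kept from the lamp (non-UV). All groups are of the same strain and sex, and the genotype given for every sample is SKH1. The unexposed group was identified with the headers' label back by elimination. The headers do not say whether that label names a body site, and body site and exposure cannot be told apart in this group. Nothing states that the libraries of a group are separate animals, and placebo sites of 1 number may share a mouse, so p-values cover only the spread between libraries, which may be technical.

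The hair shaft is built by cells that leave the matrix at the base of a growing follicle. Cortex and cuticle cells fill with type I and type II hair keratins, which pair into filaments, and keratin-associated proteins then cross-link these filaments through cysteine or embed them in glycine- and tyrosine-rich protein. Around the shaft lies the inner root sheath, a mould with keratins of its own (Krt25 to Krt28 and Krt71 to Krt74) and with trichohyalin, Tchh, which peptidylarginine deiminases such as Padi3 modify before it hardens. These genes are expressed in the growing phase of the hair cycle, and their transcripts mark follicles that are making hair or sheath. SKH1 mice carry a mutation of the hairless gene Hr. They lose their coat after the first hair cycle, while remnants of the follicles persist in the skin. In whole skin, fewer follicle cells and less RNA per cell cannot be told apart.

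Each value below is a log2 fold change with its standard error (SE) from the authors' deposited table, and a gene is said to have changed where the adjusted p of the authors' DESeq2 Wald test is under 0.05. The tables hold no values per library, so the depth is unknown, values per library cannot be given, and the levels that would check the tissue against its markers are not known. DESeq2 gives no adjusted p to genes of low mean count, and the 4 tables filter at different strengths. The genes they keep are nested, so the filter ranks the members by abundance. Of 80 members, 18 had an adjusted p in every table, 25 in all but the comparison of GZ21T with placebo lesions, and 16 only in perilesional over non-lesional and lesional over non-UV skin. A further 17 had a fold change but no adjusted p, and 4 (Krtap5-1, Krtap13, Krtap20-2 and Krtap31-1) had no fold change at all. Of the inner root sheath genes 7 of 9 were in the most abundant class, and of the cortex and cuticle keratins 7 of 13, but of the keratin-associated proteins 2 of 52, Krtap7-1 and Krtap11-1.

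Most structural members lie in gene clusters. On GRCm38, 33 of them (11 type I keratins and 22 Krtap genes) lie on chromosome 11 between 99315516 and 100105626, and 10 type II keratins on chromosome 15 between 101459061 and 101802346. Another 22 Krtap genes lie on chromosome 16 between 88610705 and 89571183, with 5 more on chromosome 7 and 3 on chromosome 10, and Tchh on chromosome 3 at 93442330 to 93449077. Krt85 matched no single annotated gene and was not placed. GENCODE lists Krt74 as a transcribed unitary pseudogene in the mouse.

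RefSeq promoters on GRCm38.p6 were found for 67 of the 80 members, and the 250 bases before the start are shown for 4 structural genes that changed in a comparison below. They are Tchh on chromosome 3 (plus strand), Krt32 on chromosome 11 (minus strand), Krtap3-2 on chromosome 11 (minus strand) and Krtap15 on chromosome 16 (plus strand). Capitals mark TATAAA, the letters of a TATA box, and CTTTGA, letters that LEF1 and TCF factors recognise, on either strand:
Tchh, chr3:93442080-93442329: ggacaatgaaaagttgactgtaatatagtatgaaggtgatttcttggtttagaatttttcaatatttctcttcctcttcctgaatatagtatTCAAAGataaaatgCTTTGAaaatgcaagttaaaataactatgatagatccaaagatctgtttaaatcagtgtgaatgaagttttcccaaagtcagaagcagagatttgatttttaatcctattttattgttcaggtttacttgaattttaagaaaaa
Krt32, chr11:100088270-100088519: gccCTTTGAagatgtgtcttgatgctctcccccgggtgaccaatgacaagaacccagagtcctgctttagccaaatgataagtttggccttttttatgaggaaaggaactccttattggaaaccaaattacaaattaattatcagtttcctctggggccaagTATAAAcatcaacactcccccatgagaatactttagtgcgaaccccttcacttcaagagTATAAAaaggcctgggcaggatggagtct
Krtap3-2, chr11:99556854-99557103: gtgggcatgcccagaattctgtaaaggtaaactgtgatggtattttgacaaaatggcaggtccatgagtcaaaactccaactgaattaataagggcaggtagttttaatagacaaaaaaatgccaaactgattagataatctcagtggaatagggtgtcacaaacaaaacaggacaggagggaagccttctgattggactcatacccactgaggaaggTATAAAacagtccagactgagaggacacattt
Krtap15, chr16:88828759-88829008: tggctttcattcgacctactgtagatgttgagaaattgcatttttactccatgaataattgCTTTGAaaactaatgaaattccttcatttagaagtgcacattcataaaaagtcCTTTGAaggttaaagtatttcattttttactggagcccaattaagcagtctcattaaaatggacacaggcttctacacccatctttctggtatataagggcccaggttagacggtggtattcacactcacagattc
Krt32 holds TATAAA at -29 to -24 and again at -88 to -83, and Krtap3-2 at -32 to -27, whereas these letters are not in the windows of Tchh and Krtap15. The structural genes Krt36, Krt82, Krtap10-4 and Krtap26-1 also changed in a comparison below, and their windows are not shown. Of these, Krtap10-4 and Krtap26-1 hold TATAAA without CTTTGA, and Krt36 and Krt82 hold neither. Over the 250 bases and both strands, 50 of the 67 members (74.6%) hold TATAAA, against 12.97% of 27025 promoters in the table. On the sense strand from 45 to 16 bases before the start the letters stand in 37 members (55.2%), against 2.36% of all promoters. The share over both strands was 7 of 8 inner root sheath genes, 5 of 7 cortex and cuticle keratins and 38 of 47 Krtap genes, but 0 of 4 among Foxn1, Msx2, Lhx2 and Padi3. CTTTGA was found in 18 members (26.9%), against 14.05% of all promoters, and in 4 of the 7 cortex and cuticle keratins. These are matches of letters, and the 2 motifs do not overlap in the windows shown.

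Non-lesional irradiated skin was set against unexposed skin first. The hair genes had negative fold changes, larger for the shaft than for the inner root sheath, but no member passed the test. Of the 43 members with an adjusted p, 42 had a negative fold change by the authors' deposited table, against 52.1% of all genes. The median was -1.30 for 8 inner root sheath genes (range -1.95 to -0.21), -2.60 for 12 cortex and cuticle keratins (range -3.73 to -1.79) and -2.51 for 17 keratin-associated proteins (range -3.61 to -0.42). Thus 0 of 43 changed by the authors' DESeq2 test, where 1.66% of 14124 genes did (1.13% higher and 0.531% lower), and 8 were lower and 0 higher at an unadjusted p under 0.05, where 4.96% of all genes were lower.

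Among the shaft keratins, Krt82, a type II keratin of the hair cuticle, stood at -2.67 ± 1.06 (adjusted p = 0.25; the authors' deposited table), and its cuticle companion Krt32 at -2.12 ± 0.94 (adjusted p = 0.36). Krt85, a keratin of the matrix and early cortex, had the lowest value of the keratins, -3.73 ± 1.93 (adjusted p = 0.51; the authors' deposited table). The smallest adjusted p of any member was that of Krtap15, at -3.61 ± 1.25 (adjusted p = 0.14; the authors' deposited table). Inner root sheath genes stood nearer to 0: Tchh at -1.32 ± 0.87 (adjusted p = 0.71), Krt26 at -1.95 ± 1.32 (adjusted p = 0.72) and Krt73 at -0.21 ± 0.80 (adjusted p = 0.98; the authors' deposited table). The transcription factor Foxn1, which is needed for keratinised hair shafts, was at 0.23 ± 0.31 (adjusted p = 0.92), and Msx2, a homeobox factor of the hair matrix, at -0.83 ± 0.36 (adjusted p = 0.35; the authors' deposited table). The difference between inner root sheath and shaft was not tested, since that needs values per library.

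**Figure D1:**
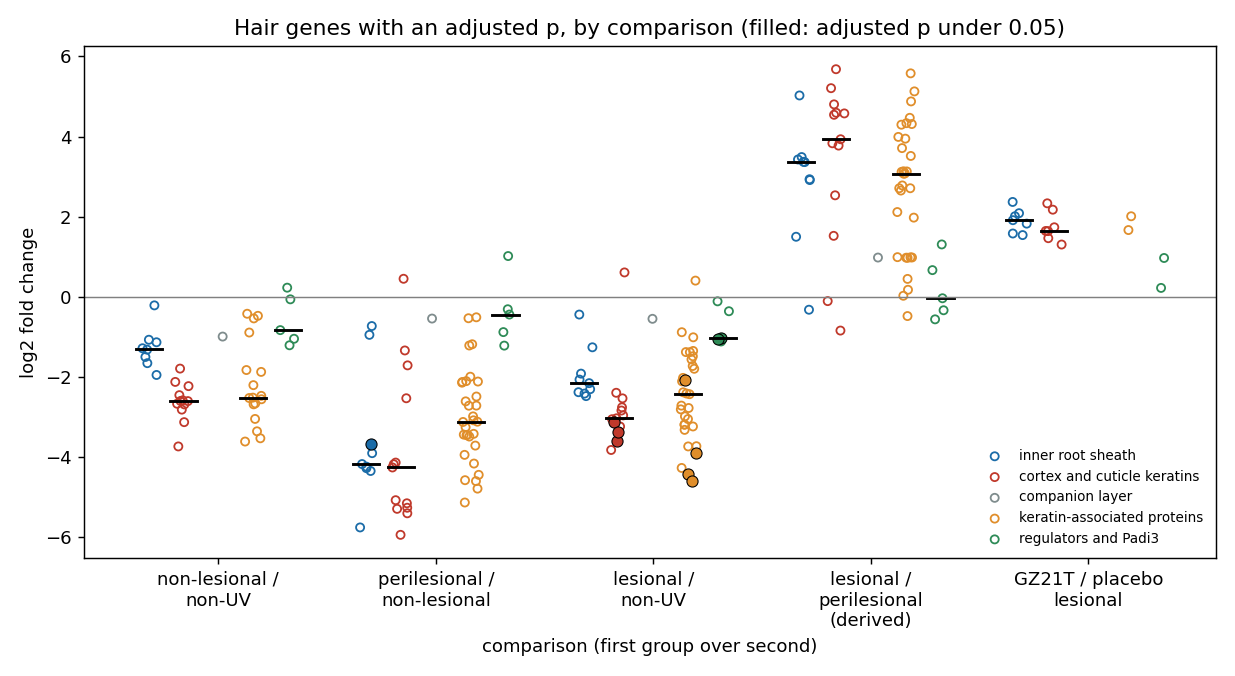
Log2 fold change (vertical axis) of every member with an adjusted p in each of 5 comparisons (horizontal axis), coloured by subgroup, with filled circles for adjusted p under 0.05 and black bars for subgroup medians of more than 2 genes. Nearly all structural genes lie below 0 in the first 3 comparisons, with Krt84 and Krtap4-9 the exceptions, most lie above 0 in lesional over perilesional skin, and all of those tested do in GZ21T over placebo lesions; 1 filled circle stands in perilesional over non-lesional skin and 9 in lesional over non-UV skin.

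Perilesional skin, the irradiated skin around a lesion, was compared with non-lesional irradiated skin. This comparison held the lowest values of the keratins, and trichohyalin fell. Of 59 members with an adjusted p, 57 had a negative fold change in the authors' deposited table, against 46.8% of all genes, and 26 were lower and 0 higher at an unadjusted p under 0.05, where 4.18% of all genes were lower. By adjusted p 1 of 59 (1.69%) changed, where 0.112% of 15201 genes did (0.0921% higher and 0.0197% lower). That gene, Tchh, fell by 3.66 ± 0.88 on the log2 scale (adjusted p = 0.032; the authors' deposited table), which is 12.7-fold, with a 95% interval of -5.38 to -1.95. Its adjusted p was 0.095 when the null spread was taken from all genes, that is, with Wald statistics divided by their robust SD over all genes.

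Inner root sheath and shaft keratins had similar values here, with medians of -4.17 for 9 sheath genes and -4.26 for 13 shaft keratins. In the sheath, the type I keratins Krt25, Krt26, Krt27 and Krt28 lay between -4.27 and -3.90, and Krt28 stood at -4.27 ± 1.23 (adjusted p = 0.16; the authors' deposited table). Of the type II partners, Krt71 stood at -4.34 ± 1.90 (adjusted p = 0.54) and Krt72, a keratin of the sheath cuticle, at -5.75 ± 1.80 (adjusted p = 0.23; the authors' deposited table). Krt73, also of the sheath cuticle, stood apart from them at -0.73 ± 0.80 (adjusted p = 0.90), with a 95% interval of -2.29 to 0.84, in the authors' deposited table. The pseudogene Krt74 stood at -0.95 ± 1.19 (adjusted p = 0.92; the authors' deposited table).

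In the shaft the lowest value was that of Krt81, a cortex keratin, at -5.94 ± 2.06 (adjusted p = 0.34; the authors' deposited table), followed by the cortex keratin Krt35 at -5.40 ± 1.80 (adjusted p = 0.30) and the cuticle keratin Krt82 at -5.29 ± 1.57 (adjusted p = 0.19). Nearer to 0 than most shaft keratins were Krt84 at 0.45 ± 0.92 (adjusted p = 0.96) and Krt36 at -1.71 ± 1.07 (adjusted p = 0.75; the authors' deposited table). Krt85 was at -1.34 ± 2.18 (adjusted p = 0.95; the authors' deposited table), with the widest SE of the keratins. Krt75, the keratin of the companion layer between sheath and outer root sheath, was at -0.54 ± 0.98 (adjusted p = 0.96; the authors' deposited table). All 31 keratin-associated protein genes with an adjusted p had a negative fold change, with a median of -3.11, and Krtap11-1 had the lowest at -5.13 ± 1.85 (adjusted p = 0.38; the authors' deposited table). The fitted value -1.21 was shared, to 3 decimals, by 8 Krtap genes, of which Krtap24-1 alone had an adjusted p, and another 8 were exactly 0. A value shared in this way arises at very low counts and is not a size. The transcription factors were at -0.88 ± 0.39 for Msx2 (adjusted p = 0.54), -0.44 ± 0.40 for Dlx3 (adjusted p = 0.86), -0.31 ± 0.31 for Foxn1 (adjusted p = 0.88) and 1.02 ± 0.93 for Lhx2, a factor of follicle stem cells (adjusted p = 0.87; the authors' deposited table).

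Lesional over perilesional skin had no table and was derived from 3 deposited ones. The keratins that were low in perilesional skin had positive values here, but no member changed. Since the perilesional libraries enter this contrast and the last with opposite sign, the values are not independent of each other. By the derived contrast 52 of 59 members had a positive fold change, 23 were higher and 0 lower at an unadjusted p under 0.05, where 6.99% of all genes were higher, and 0 passed the adjusted p, where 0.533% of 15187 genes did (0.309% higher and 0.224% lower). Tchh, at 2.92 ± 0.88 (adjusted p = 0.094), had the smallest adjusted p, before Krt86, a type II cortex keratin, at 5.21 ± 1.66 (adjusted p = 0.14). The highest was Krt81 at 5.68 ± 2.06 (adjusted p = 0.22). Krt73 at -0.32 ± 0.80 (adjusted p = 0.96), Krt36 at -0.10 ± 1.16 (adjusted p = 0.99) and Krt84 at -0.84 ± 0.93 (adjusted p = 0.83) were again apart from the other keratins.

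**Figure D2:**
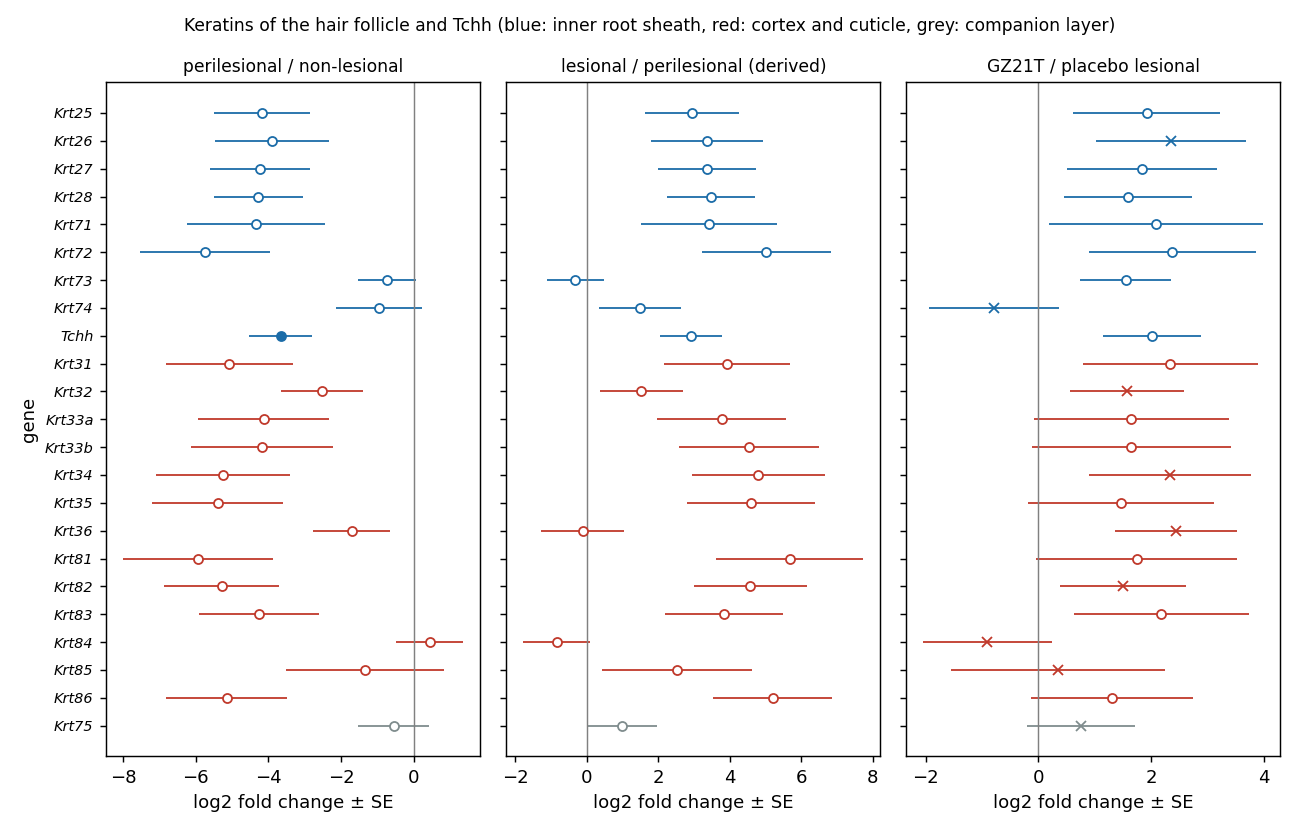
Log2 fold change with its SE (horizontal axes) of 22 keratins and Tchh (vertical axis) in perilesional over non-lesional skin, lesional over perilesional skin and GZ21T over placebo lesions; filled circles have an adjusted p under 0.05, open circles an adjusted p above it, and crosses no adjusted p. Tchh in perilesional over non-lesional skin is the filled point, and in that panel Krt73, Krt74, Krt36, Krt84, Krt85 and Krt75 lie between -1.71 and 0.45, to the right of all other keratins.

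Lesions were compared with unexposed skin next. Expression of 3 hair keratins, 4 keratin-associated proteins and 2 homeobox factors fell, while no inner root sheath gene passed the test (1 of 9 was lower at an unadjusted p under 0.05). Of 59 members, 9 (15.3%) were lower and 0 higher by the authors' deposited table, where 8.17% of 15201 genes were lower and 10.2% higher (18.3% in either direction). They are 0 of 9 inner root sheath genes, 3 of 13 shaft keratins, 4 of 31 keratin-associated proteins and 2 of 5 others. Krt36, a type I keratin, fell by 3.60 ± 1.05 (adjusted p = 0.0076), or 12.1-fold, Krt82 by 3.37 ± 1.08 (adjusted p = 0.016) and Krt32 by 3.12 ± 0.97 (adjusted p = 0.013; the authors' deposited table). Krt31, a cortex keratin, had the lowest value of the shaft keratins in the authors' deposited table, -3.82 ± 1.54, but an adjusted p of 0.065.

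Of the keratin-associated proteins, Krtap15 fell by 3.88 ± 1.25 (adjusted p = 0.017), Krtap26-1 by 4.60 ± 1.72 (adjusted p = 0.044), Krtap10-4 by 4.43 ± 1.66 (adjusted p = 0.044) and Krtap3-2 by 2.08 ± 0.79 (adjusted p = 0.049; the authors' deposited table). Krtap genes have near-identical copies, between which reads can be split, so single members of multigene families such as Krtap4, Krtap5, Krtap9 and Krtap10 are uncertain. Msx2 fell by 1.04 ± 0.36 (adjusted p = 0.029) and Dlx3, a homeobox factor of matrix, shaft and sheath that epidermis also expresses, by 1.06 ± 0.40 (adjusted p = 0.049; the authors' deposited table). Inner root sheath genes had a median of -2.15 with Tchh at -2.06 ± 0.87 (adjusted p = 0.081) and Krt25 at -2.30 ± 1.30 (adjusted p = 0.21; the authors' deposited table). Padi3 was at -1.11 ± 1.07 (adjusted p = 0.50), Lhx2 at -0.36 ± 0.92 (adjusted p = 0.83), Foxn1 at -0.11 ± 0.31 (adjusted p = 0.85) and Krt75 at -0.55 ± 0.96 (adjusted p = 0.74; the authors' deposited table). The count was 5 of 76 when p was adjusted over every gene with a p, where 13.4% of all genes passed in either direction. It was 1 of 18 (Dlx3) among genes tested by all 4 tables, where 24.2% passed, and 0 of 59 with the null spread taken from all genes, where 0.0921% passed. In either direction the members' share was below that of all genes in each of these settings, and also in the main result (15.3% against 18.3%). In placebo lesional over non-lesional skin, a difference of 2 deposited tables that was not tested, the median was -0.83 for 8 inner root sheath genes, negative in all 8, and -0.44 for 12 shaft keratins, negative in 9.

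GZ21T-treated lesions were compared with placebo lesions, to ask how the cream changes a lesion. Every member with an adjusted p had a positive fold change in GZ21T lesions, but none passed the test. The placebo lesional libraries enter this comparison and lesional over non-UV skin with opposite sign, so the values of the 2 comparisons are not independent. In the authors' deposited table, turned so that positive is higher under GZ21T, 18 of 18 were positive, against a share of 55.2% negative among all genes, and 0 changed by the authors' DESeq2 test where 3.61% of 10899 genes did (1.31% higher and 2.29% lower). At an unadjusted p under 0.05, 2 were higher and 0 lower, where 8.87% of all genes were higher. Tchh stood at 2.01 ± 0.87 (adjusted p = 0.14; 95% interval 0.30 to 3.73) and Dlx3 at 0.97 ± 0.40 (adjusted p = 0.13; 95% interval 0.18 to 1.76; the authors' deposited table). The 7 inner root sheath genes had a median of 1.92, from 1.54 for Krt73 (SE 0.80, adjusted p = 0.23) to 2.37 for Krt72 (SE 1.48, adjusted p = 0.33; the authors' deposited table). The 7 shaft keratins had one of 1.65, from 1.31 for Krt86 (SE 1.43, adjusted p = 0.62) to 2.34 for Krt31 (SE 1.55, adjusted p = 0.36; the authors' deposited table). Krtap7-1 was at 2.01 ± 1.82 (adjusted p = 0.53), Krtap11-1 at 1.67 ± 1.55 (adjusted p = 0.55) and Foxn1 at 0.22 ± 0.31 (adjusted p = 0.71; the authors' deposited table). Among members without an adjusted p, Krt36 stood at 2.44 ± 1.08, Krtap10-4 at 4.09 ± 1.67 and Krtap26-1 at 3.40 ± 1.77 in the authors' deposited table. These genes are among those that were low in placebo lesions against non-UV skin, so positive values here are not separate evidence. Of others without one, Krt74 stood at -0.78 ± 1.15, Krt84 at -0.90 ± 1.14, Krt75 at 0.75 ± 0.96, Padi3 at 0.73 ± 1.08, Msx2 at -0.07 ± 0.39 and Lhx2 at -0.37 ± 0.94 in the authors' deposited table.

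The tables were then chained to place all 5 groups on 1 scale relative to unexposed skin, for the 43 members with an adjusted p in the 3 placebo tables. The sums carry no test. Unexposed skin was the highest group for 39 of 43 members and perilesional skin the lowest for 37. For 8 inner root sheath genes the median level was 40.7% of that in unexposed skin in non-lesional skin, 2.27% in perilesional skin, 21.4% in placebo lesions and 85.5% in GZ21T lesions. For 12 cortex and cuticle keratins it was 16.5%, 0.572%, 12.2% and 42.4% in the same order. In GZ21T lesions these medians are -0.23 and -1.24 on the log2 scale, with gene ranges of -0.39 to 0.29 for the sheath and -2.19 to -0.71 for the shaft. Krt74 of the sheath at -1.22 and Krt84 of the shaft at -0.29, which lack an adjusted p in 1 of the placebo tables, fall outside these ranges, so that over all members the subgroups overlap. Their difference was not tested. The 17 keratin-associated proteins had medians of 17.5%, 1.38%, 18.6% and 47.3%. On the log2 scale these lay nearer to the shaft keratins in non-lesional skin and GZ21T lesions. In perilesional skin and placebo lesions they lay nearer to the inner root sheath. Against placebo lesions, only 7 of the 8 sheath genes, 7 of the 12 shaft keratins and 2 of these 17 had an adjusted p under GZ21T. Among those genes the medians in GZ21T lesions were 80.0%, 46.2% and 39.5%. The genes of a subgroup share libraries and are not replicates of a group.

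**Figure D3:**
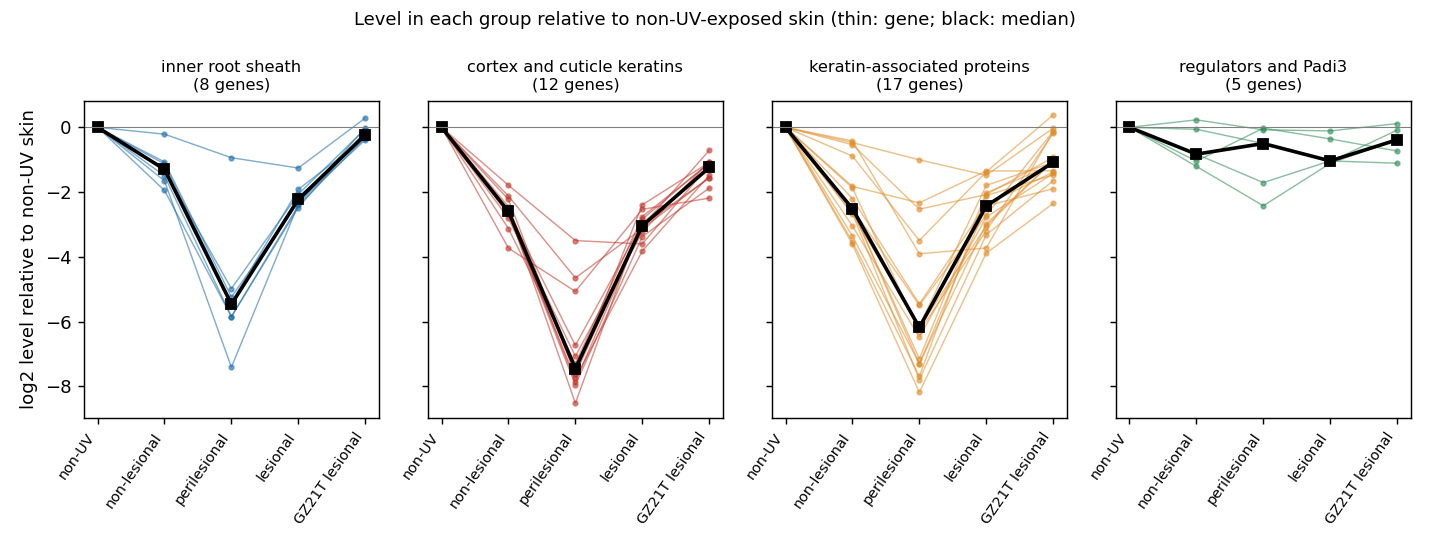
Log2 level relative to non-UV-exposed skin (vertical axis) in the 5 groups (horizontal axis), with a thin line for each gene and a black line for the subgroup median, chained from the deposited fold changes and without error bars. The median is lowest in perilesional skin for all subgroups but the regulators with Padi3, and the median of the inner root sheath in GZ21T lesions is -0.23.

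Keratin-associated proteins were split by family number into classes assigned for this report. Families 10, 12 and 16 are often counted as high sulfur, and the counts and medians below depend on where they are placed. Of 20 ultra-high sulfur genes (families 4, 5, 9, 10, 12 and 17) 13 had an adjusted p in perilesional over non-lesional skin, with a median of -2.49 in the authors' deposited table. Of 15 high sulfur genes 13 did, with a median of -3.94, and of 13 high glycine-tyrosine genes 4 did, with a median of -3.35. In lesional over non-UV skin the medians were -1.56, -2.77 and -2.59 in the same order. There 1 of 13 ultra-high sulfur, 3 of 13 high sulfur and 0 of 4 high glycine-tyrosine genes fell, where 8.17% of all genes were lower. The ultra-high sulfur gene that fell was Krtap10-4, of family 10, so its class depends on that placing. No table gave an adjusted p for 9 of 13 high glycine-tyrosine, 7 of 20 ultra-high sulfur and 2 of 15 high sulfur genes. The remaining 4 Krtap genes (families 16 and 31) were not placed in a class.

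The abundant structural genes had wider SEs than most other genes. Among 10898 genes with an SE here that all 4 tables tested, the median SE in perilesional over non-lesional skin was 0.27 and the 95th percentile 0.78. All 16 structural members of this abundance class lay above that percentile, with SEs from 0.80 to 2.06 and a median of 1.78, while Foxn1 and Dlx3 had SEs of 0.31 and 0.40. Of the less abundant regulators, Msx2 had an SE of 0.39, but those of Lhx2 (0.93) and Padi3 (1.09) were wider than those of Krt73 (0.80) and Tchh (0.88). The same 16 lay above the 95th percentile in each of the 4 tables. Krt71, for example, had an SE of 1.90 in each of them. DESeq2 fits 1 spread per gene over the libraries it is given, so these SEs do not show which group varied. At the smallest Wald statistic called in perilesional over non-lesional skin, 4.03, a shaft keratin with the median SE of 1.75 would need a log2 fold change of 7.07, or 134-fold, to pass, and an inner root sheath gene one of 5.30, or 39.4-fold. In GZ21T over placebo lesions these sizes were 5.14 and 4.07. Genes with a narrower SE passed at smaller sizes, as Tchh did with its SE of 0.88.

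**Figure D4:**
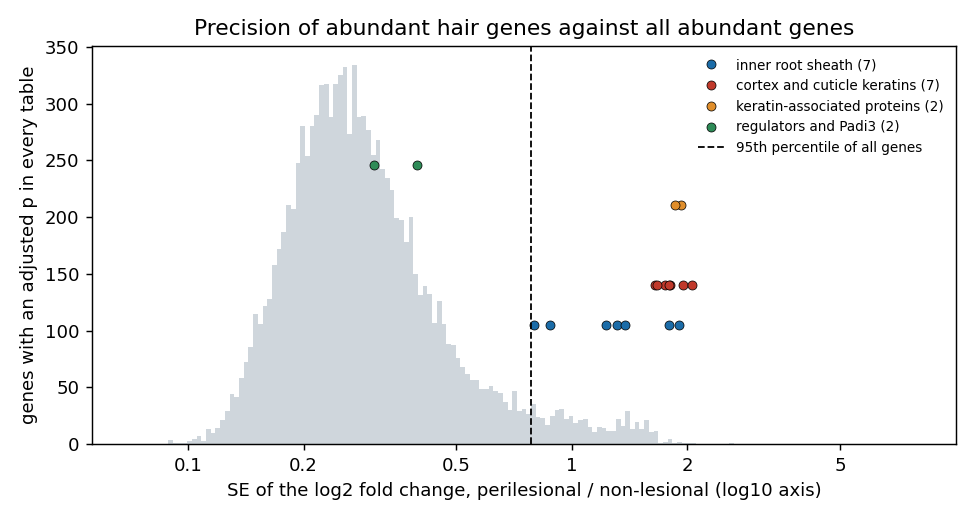
Number of genes (vertical axis, grey bars) by SE of the log2 fold change in perilesional over non-lesional skin (horizontal axis, log10 scale), for genes tested by all 4 tables; points mark the 18 members of this class, at arbitrary heights, and the dashed line the 95th percentile. All 16 structural members lie to the right of the line, and Foxn1 and Dlx3 at 0.31 and 0.40 to the left.

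Other genes of the follicle, from a list of 27 that holds no member, were given beside the keratins. In lesional over non-UV skin 6 of 25 fell and 0 rose in the authors' deposited table, where 8.17% of all genes were lower and 10.2% higher. They include Dsg4, the cadherin that joins shaft cells, at -3.35 ± 0.82 (adjusted p = 0.0012), Hoxc13, the homeobox activator of hair keratin genes, at -1.08 ± 0.38 (adjusted p = 0.032) and Gata3, a factor of the inner root sheath, at -1.03 ± 0.32 (adjusted p = 0.013). The others are the growth factor Bmp4 at -3.15 ± 0.58 (adjusted p = 8.8e-06), the follicle ligand Wnt10b at -1.42 ± 0.52 (adjusted p = 0.039) and the stem cell receptor Lgr6 at -2.59 ± 0.79 (adjusted p = 0.011; the authors' deposited table). In perilesional over non-lesional skin 0 of 25 changed, where 0.112% of all genes did. At an unadjusted p under 0.05, 2 were higher and 5 lower, where 3.64% of all genes were higher and 4.18% lower. The 2 higher were Lgr5 at 2.64 ± 1.09 (adjusted p = 0.48) and Sox9 at 0.93 ± 0.39 (adjusted p = 0.49). Dsg4 stood at -4.84 ± 1.29 (adjusted p = 0.099), the shaft gene Gprc5d at -4.77 ± 1.73 (adjusted p = 0.38) and Hoxc13 at 0.17 ± 0.38 (adjusted p = 0.96; the authors' deposited table). In non-lesional over non-UV skin 1 of 24 rose, where 1.13% of all genes did. It was Cdsn, a corneodesmosomal protein of sheath and epidermis, at 1.32 ± 0.30 (adjusted p = 0.0028; the authors' deposited table). In GZ21T over placebo lesions 0 of 15 changed (2 higher and 1 lower at an unadjusted p under 0.05), and in the derived contrast of lesional over perilesional skin 1 of 25 rose, the transglutaminase Tgm3 at 2.03 ± 0.53 (adjusted p = 0.032).

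Markers of neighbouring cells moved with some of these comparisons, and their part in the results was not tested. By adjusted p, 0.0921% of all genes were higher and 0.0197% lower in perilesional over non-lesional skin, where 46.8% had a negative fold change. In lesional over non-UV skin 10.2% of all genes were higher and 8.17% lower. In GZ21T over placebo lesions 1.31% were higher and 2.29% lower, and 55.2% had a negative fold change. Sebaceous gland genes, of the gland attached to the follicle, had 3 of 12 higher (Fa2h at 4.75, Elovl3 at 3.52 and Mgst1 at 2.25) and 0 lower in perilesional over non-lesional skin in the authors' deposited table, with all 12 positive and a median of 2.38, where the hair keratins had negative values. In lesional over non-UV skin 6 of 12 were higher and in GZ21T over placebo lesions 0 of 6 changed, with all 6 negative in that table. Epidermal genes had 0 of 6 changed in perilesional over non-lesional skin, all 6 of them negative with a lowest value of -0.60 in the authors' deposited table, and 1 was lower at an unadjusted p under 0.05. In lesional over non-UV skin Krt14, of the basal layer, was higher at 0.95 ± 0.35 (adjusted p = 0.038) and Lor, of the cornified layer, lower at -1.61 ± 0.49 (adjusted p = 0.011; the authors' deposited table). In GZ21T over placebo lesions 2 of 6 epidermal genes were higher, the suprabasal keratin Krt1 at 1.42 ± 0.38 (adjusted p = 0.019) and Lor at 1.76 ± 0.49 (adjusted p = 0.026; the authors' deposited table). Proliferation genes had 0 of 10 changed in perilesional over non-lesional skin and 7 of 10 higher in lesional over non-UV skin. In GZ21T over placebo lesions all 10 were negative, with 8 lower at an unadjusted p under 0.05 and 1 by adjusted p, Birc5 at -1.31 ± 0.38 (adjusted p = 0.030; the authors' deposited table). Dermal papilla genes, of the cells that signal to the hair matrix, had 0 of 6 changed in perilesional over non-lesional skin with a median of -0.17, and in lesional over non-UV skin 1 of 6 was lower, the ligand Rspo3 at -3.21 ± 1.09 (adjusted p = 0.025; the authors' deposited table). In perilesional over non-lesional skin melanocyte genes had 0 of 6 changed with a median of -1.36 in the authors' deposited table. At an unadjusted p under 0.05, 0 of the sebaceous genes differed in GZ21T over placebo lesions, and 0 of the proliferation, dermal papilla and melanocyte genes in perilesional over non-lesional skin.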

How the data were processed

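RNA-seq of total RNA was carried out on mouse skin in 15 libraries, prepared as stranded total RNA, per the labels' protocols. The submitters' processing notes name Trim Galore, DESeq2 and GRCm38 (mm10). Aligner, counter, annotation, versions and model formula: not given in the sources used here. In each of 4 tables the authors deposited a log2 fold change, a Wald statistic (a score, the fold change over its SE), a p-value and an adjusted p-value, per the file headers, without counts. No column of values per library was left unused (0).

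The SE was computed as fold change over Wald statistic. Rows whose symbol a spreadsheet had turned into a date (25 in each table, 27 in that of GZ21T) were removed, and the GZ21T table was turned in sign. The table named for perilesional and lesional skin has a header for lesional over the label back and was used so: 1423 genes are at exactly 0 between non-lesional and non-UV skin, and 704 of them are positive and 0 negative in it. With perilesional skin as its reference, none of the 1195 at 0 between perilesional and non-lesional skin should be negative, but 271 are. The group labelled back is the non-UV-exposed group by elimination.

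Lesional over perilesional skin was obtained by subtracting the other 2 placebo fold changes from the deposited one for lesions. The variance combined the 3 squared SEs with signs plus (lesional), minus (non-lesional over non-UV) and plus (perilesional), exact if group is the only model term. Its two-sided normal p-values were adjusted by Benjamini-Hochberg over 15187 genes. A simulation drew independent group errors with variances built from the deposited SEs. It checked the arithmetic of the derivation only, and could not test whether group is the only model term or whether sites share a mouse. Gene positions are from GENCODE mouse release 21.

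The members and gene lists were chosen with earlier results of these data known. Named members were taken from those with an adjusted p under 0.05, the smallest adjusted p or the extreme values of a subgroup, and from Tchh, Krt75, Padi3 and the transcription factors. Not all that this rule allows are printed, and others (such as Krt84, Krt74 and Krt35) were chosen after their values were seen. The planned split of Krtap proteins by amino acid content was replaced by family number. Python 3.11.15, numpy 2.4.6, pandas 2.3.3 and scipy 1.17.1 were used.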

Additional observations from a re-analysis of the deposited data

How the results depend on the processing

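No paired analysis was possible because the tables hold no values per library, so the replicate block and the fits without each replicate were not run. The counts of changed members kept within 1.5 times of the reported ones except in these cases. In lesional over non-UV skin the count of 9 became 5 when p was adjusted over every gene with a p, 1 when only genes tested by all 4 tables were kept (there 18 members were tested), and 0 with the null spread taken from all genes. In perilesional over non-lesional skin the count of 1 became 0 with that null spread. In lesional over perilesional skin the count of 0 became 1, Tchh, at an adjusted p under 0.1. Centring on the median of all genes, which lay between -0.06 and 0.08 in the 5 comparisons, changed no count, and no called member changed sign under any alternative run. The robust SD of the Wald statistic behind the null spread was 1.92 in lesional over non-UV skin, where 18.3% of genes were called, so true changes may widen it. Depth is unknown, and the SEs of the structural genes limit what could be called.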

Other observations

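Skeletal muscle genes had wide SEs too. The 12 muscle genes had a median SE of 1.55 in each of the 4 deposited tables, beside 1.54 for the 16 abundant structural hair genes in non-lesional over non-UV skin and 1.78 in perilesional over non-lesional skin, while 6 epidermal genes had one of 0.37. Their fold changes ran the other way in non-lesional over non-UV skin, with all 12 positive, a median of 1.83 and 0 of 12 changed, and in lesional over non-UV skin, with all 12 positive, a median of 1.95 and 0 of 12 changed. Where the hair keratins were lowest, between perilesional and non-lesional skin, muscle genes had a median of 0.39 with 0 of 12 changed. At an unadjusted p under 0.05, 0 of 12 differed in any of these 3 comparisons by the authors' DESeq2 test, where 7.83% to 31.4% of all genes did. The gene Hr, whose mutation makes SKH1 mice hairless, stood at 0.07 ± 0.37 (adjusted p = 0.99) in non-lesional over non-UV skin, at -0.05 ± 0.37 (adjusted p = 0.99) in perilesional over non-lesional skin, at -0.66 ± 0.37 (adjusted p = 0.21) in lesional over non-UV skin and at 0.72 ± 0.37 (adjusted p = 0.22) in GZ21T over placebo lesions in the authors' deposited table. In the derived contrast of lesional over perilesional skin Hr stood at -0.68 ± 0.37 (adjusted p = 0.51).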
